A study of Zea mays with 18 samples.

Results

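The ethanol fermentation genes adh1 (Zm00001d033931.RefGen_V4), which encodes an alcohol dehydrogenase, and pdc3 (Zm00001d028759.RefGen_V4), which encodes a pyruvate decarboxylase, were followed through 18 RNA-seq libraries of the maize root quiescent centre. These 2 of the 28724 genes in the counts table were chosen by their IDs, as classic low-oxygen genes of maize roots. The quiescent centre is the small group of slowly dividing cells at the root tip around which the stem cells lie, and it was separated by hand after the root cap had been removed. The seedlings were 5 days old and belonged to line A, in which the phytoglobin gene ZmPgb1.1 is down-regulated, to line S, which overexpresses it, or to the wild type (WT). Their roots were submerged in liquid Murashige and Skoog medium supplied with air (normoxia) or with 4% oxygen in nitrogen (hypoxia). Libraries labelled 12 h came from hypoxic roots and those labelled 0 h from normoxic roots, which gives the groups A_12h, A_0h, S_12h, S_0h, WT_12h and WT_0h, with 3 libraries each. Air-supplied roots of 12 h were not among the samples, and the effects of low oxygen and of elapsed time cannot be told apart. The sources used here do not give the promoters of the transgenes, how many independent events stand behind each line or how many seedlings were pooled in a library. Nor do the labels say whether libraries sharing a label derive from separate seedlings, and the p-values below therefore reflect only library-to-library spread, some or all of it possibly technical.

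When oxygen limits respiration, plant cells keep glycolysis running by fermenting pyruvate to ethanol. Pyruvate decarboxylase removes carbon dioxide from pyruvate and releases acetaldehyde. Alcohol dehydrogenase then reduces acetaldehyde to ethanol and returns NADH to NAD+, which glycolysis needs. Both enzymes belong to the small set of proteins that maize roots go on making without oxygen, and the maize adh1 gene is a textbook case of induction by anoxia or flooding. In Arabidopsis, the corresponding genes are activated by group VII ethylene response factors, which are broken down where oxygen and nitric oxide are both present. Phytoglobins are plant haemoglobins that remove nitric oxide.

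The libraries held 35441975 to 89759585 counts, and each of the 36 counts of the 2 genes was at least 20493, so that counting error was at most 0.699% of a value. Levels below are in CPM (counts per 1000000, relative to the TMM-scaled library size). In bulk samples a lower level can mean fewer cells that express a gene or less RNA of it per cell, and these cannot be told apart. The labelled groups were not the groups in which whole libraries resembled each other. The libraries formed 6 sets of 3 that cross the labels, with a correlation of at least 0.9964 to the second nearest library and of at most 0.991 to the third. Whether labels or column headings were exchanged between libraries was not tested, and every group mean, fold change and match with a label below holds only if they were not. By Spearman correlation over the 20945 genes tested, the 2 nearest libraries never both came from a library's own group: 1 of them did for 12 libraries and 0 for 6. Those with 0 were WT_0h replicate 2, WT_12h replicate 3, S_0h replicate 3, S_12h replicate 3, A_0h replicate 3 and A_12h replicate 3, 1 library of each group. Results are therefore given with all 18 libraries as labelled and again with these 6 left out, an alternative chosen after seeing the data. No ID of the counts table could be paired with a name in the gene table used here. The counts of ZmPgb1.1, of quiescent centre markers and of the other 13 pathway genes listed for this purpose are therefore not analysed here. Those 13 were mostly genes of fermentation and sugar supply. The line labels were not checked against their target gene.

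pdc3, whose enzyme commits pyruvate to ethanol, was highest in line A at 12 h, while at 0 h its higher mean in line A than in WT rested on A_0h replicate 3. It measured 1124, 1138 and 675 CPM in A_12h replicates 1, 2 and 3, against 619, 604 and 1078 CPM in A_0h replicates 1, 2 and 3. A_12h replicate 3 was thus at a level close to the lower A_0h libraries and A_0h replicate 3 close to the higher A_12h libraries, and the 2 groups overlapped. In line S, pdc3 measured 670.4, 666 and 622 CPM in S_12h replicates 1, 2 and 3, against 436, 498 and 738 CPM in S_0h replicates 1, 2 and 3. The S_12h libraries lay close together, between the lower S_0h libraries and S_0h replicate 3. In WT, pdc3 measured 491, 489 and 447 CPM in WT_12h replicates 1, 2 and 3, against 738, 526 and 730.0 CPM in WT_0h replicates 1, 2 and 3. Every WT library labelled hypoxic held less pdc3 than every WT library labelled normoxic.

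adh1, whose enzyme makes the ethanol, varied more than pdc3 between libraries. It measured 1049.7, 1072 and 599.8 CPM in A_12h replicates 1, 2 and 3, against 865, 842 and 1027 CPM in A_0h replicates 1, 2 and 3. A_0h replicate 3 sat near the higher A_12h libraries, as with pdc3, while A_12h replicate 3 was the lowest library of line A, below every A_0h library, and the groups overlapped. In line S, adh1 measured 613, 592 and 835 CPM in S_12h replicates 1, 2 and 3, against 290.4, 612 and 1422 CPM in S_0h replicates 1, 2 and 3. The S_0h libraries spanned a 4.90-fold range that enclosed all 3 S_12h libraries. In WT, adh1 measured 326, 372 and 292 CPM in WT_12h replicates 1, 2 and 3, against 1527, 403 and 1268 CPM in WT_0h replicates 1, 2 and 3. The WT groups did not overlap, and hypoxia was again the lower label, although WT_0h replicate 2 (403 CPM) lay close to the highest WT_12h library (372 CPM).

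**Figure D1:**
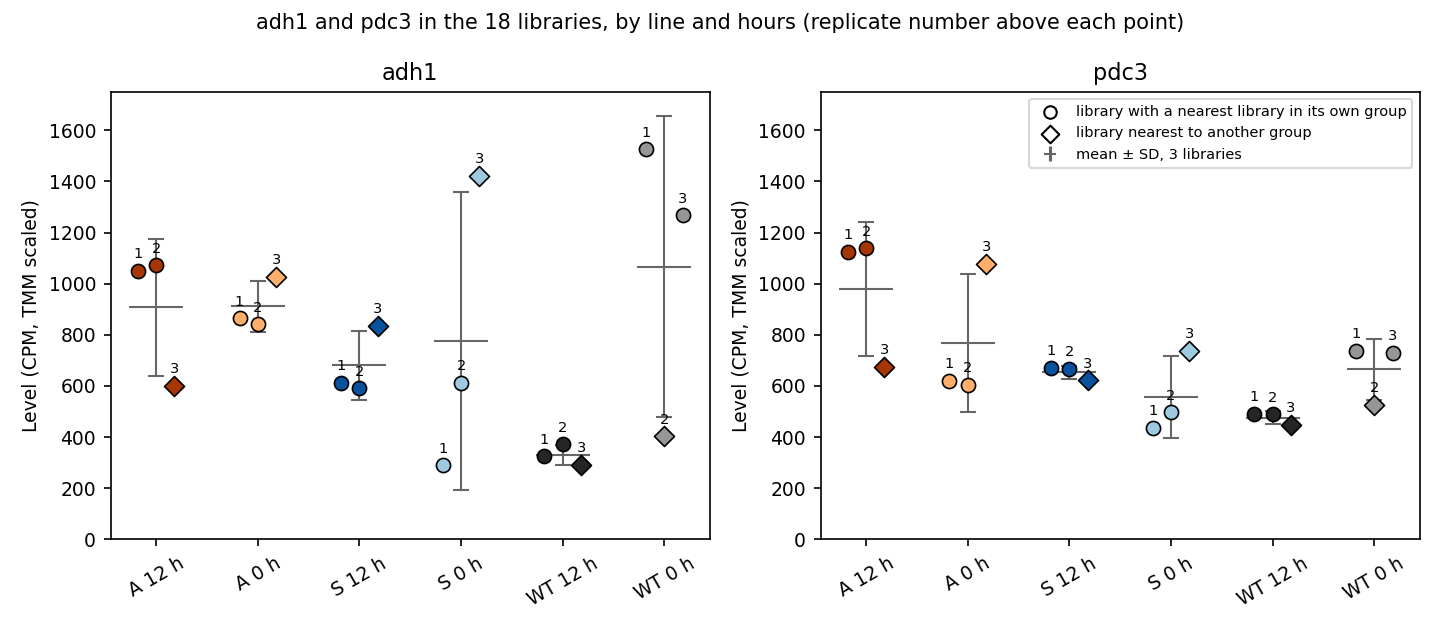
Level of adh1 (left panel) and pdc3 (right panel) in CPM, by line and hours, with 1 point per library and its replicate number, and with the mean ± SD of the 3 libraries of a group. Diamonds are the 6 libraries with neither nearest library in their own group. In WT all 12 h libraries lie below all 0 h libraries for both genes, and in lines A and S a diamond lies apart from the circles of its group for adh1.

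Between groups, adh1 averaged 907 ± 266 CPM in A_12h, 911 ± 101 CPM in A_0h, 680.0 ± 135 CPM in S_12h, 775 ± 583 CPM in S_0h, 330.1 ± 40.0 CPM in WT_12h and 1066 ± 589 CPM in WT_0h (SD, n = 3 each). In descending order of means these were WT_0h, A_0h, A_12h, S_0h, S_12h and WT_12h. Only the last step of that order, between S_12h and WT_12h, separated groups whose values did not overlap. pdc3 averaged 979 ± 264 CPM in A_12h, 767 ± 269 CPM in A_0h, 653 ± 26.7 CPM in S_12h, 557 ± 159 CPM in S_0h, 476 ± 24.8 CPM in WT_12h and 664 ± 120.2 CPM in WT_0h (SD, n = 3 each). Its order was A_12h, A_0h, WT_0h, S_12h, S_0h and WT_12h, and every neighbour in it overlapped the next. WT under the hypoxic label was at the bottom of both orders. Without the 6 libraries, the adh1 order was WT_0h, A_12h, A_0h, S_12h, S_0h and WT_12h, with overlap only between S_12h and S_0h and between S_0h and WT_12h. The pdc3 order was then A_12h, WT_0h, S_12h, A_0h, WT_12h and S_0h, with overlap only between the last pair. Leaving out the library least like its own group narrows the ranges by construction. The share of all genes without overlap was not counted for these 12 libraries, so the separations are no separate support.

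Whether a level fits the oxygen label was read within each line. A library labelled 12 h was taken to match where it was among the 3 highest of the 6 libraries of its line, and a library labelled 0 h where it was among the 3 lowest. In line A, replicates 1 and 2 of A_12h and replicates 1 and 2 of A_0h matched their labels for both genes. A_12h replicate 3 was too low for its label, and A_0h replicate 3 too high, for both genes. In line S, S_12h replicate 1 and S_0h replicates 1 and 2 matched for both genes, and S_0h replicate 3 was the highest library of its line for both and went against its label. S_12h replicate 2 matched by pdc3, where it ranked 3, and went against its label by adh1, where it ranked 5. S_12h replicate 3 matched by adh1, where it ranked 2, and went against its label by pdc3, where it ranked 4. In WT, none of the 6 libraries matched: WT_12h replicates 1, 2 and 3 were the 3 lowest and WT_0h replicates 1, 2 and 3 the 3 highest, for both genes.

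In all, 8 of 18 libraries matched by adh1 and 8 of 18 by pdc3. A random order would, on average, match as many libraries as it went against. Within a line, each 12 h library that goes against its label forces a 0 h library to do so, and the libraries are therefore not separate outcomes. Both genes matched in 7 libraries and both went against the label in 9, namely the 6 WT libraries, A_12h replicate 3, A_0h replicate 3 and S_0h replicate 3. Several of these calls were close. In line S, adh1 in S_12h replicate 1 (613 CPM, rank 3) and in S_0h replicate 2 (612 CPM, rank 4) differed by less than the counting error of either value. Read against all 18 libraries instead, with the 9 highest taken as hypoxic, 6 matched by adh1 and 10 by pdc3. Without the 6 libraries, and with the 2 highest of 4 taken as hypoxic in each line, 4 of 4 libraries matched in line A for both genes. In line S 2 of 4 then matched by adh1 and 4 of 4 by pdc3, and in WT 0 of 4 matched by either gene. The libraries left out of line A had gone against their labels for both genes, and those left out of line S by pdc3. The matches of 4 of 4 were therefore fixed by leaving them out. The 0 of 4 in WT likewise follows from all 6 WT libraries having gone against their labels.

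**Figure D2:**
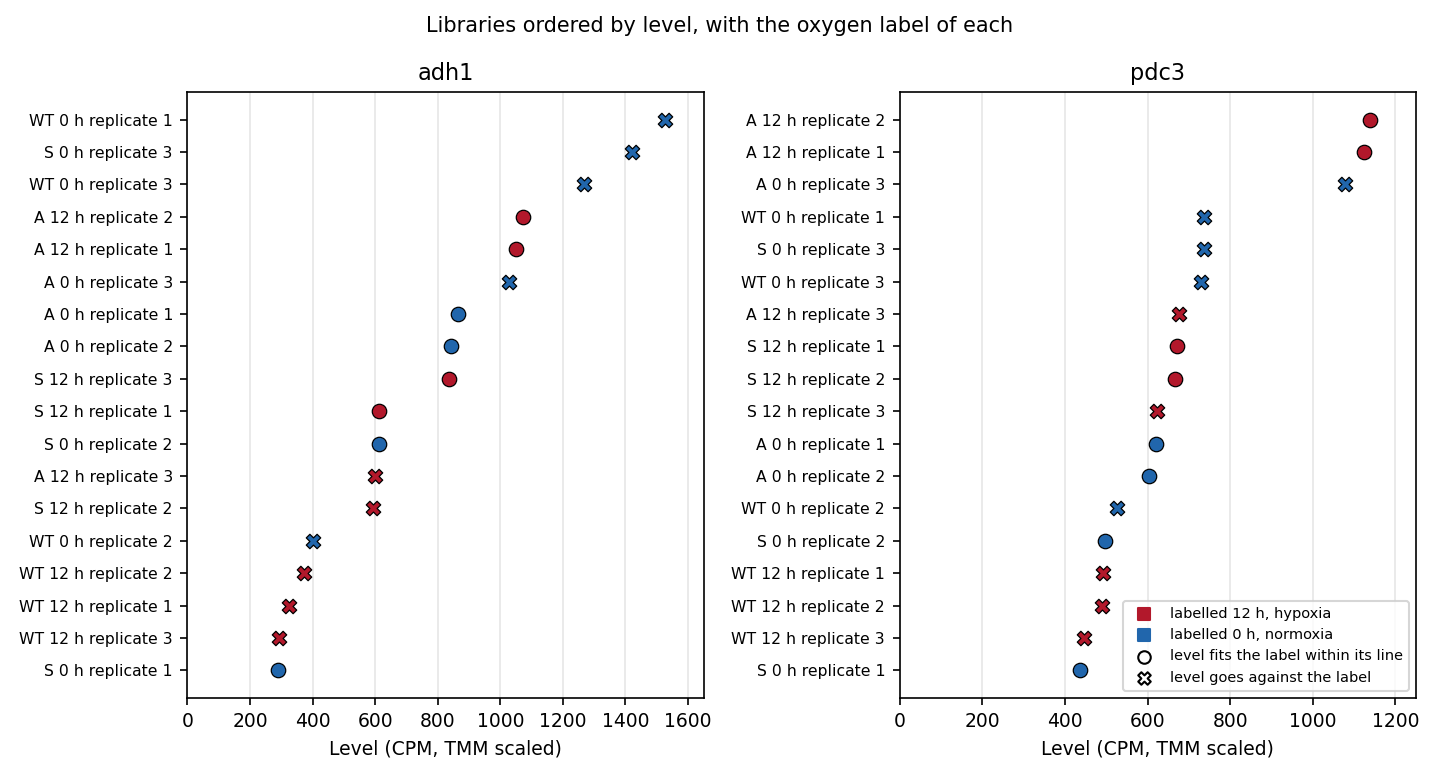
The 18 libraries in order of level (CPM) for adh1 (left panel) and pdc3 (right panel), coloured by oxygen label. Circles match their label within their line and crosses go against it. Libraries labelled 0 h hold ranks 1 to 3 of adh1, and the 3 WT_12h libraries hold ranks 15 to 17 for both genes, above S_0h replicate 1 alone.

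The 6 libraries with neither of their 2 nearest libraries in their own group mostly held fermentation gene levels close to those of the libraries they resembled. Some of the 12 others also had their first nearest library in another group, as WT_0h replicate 1 had S_0h replicate 3. A_12h replicate 3, nearest to S_12h replicates 1 and 2, had 599.8 CPM of adh1, where those libraries had 613 and 592 CPM and the other A_12h libraries 1049.7 and 1072 CPM. S_0h replicate 3, nearest to WT_0h replicates 1 and 3, had 1422 CPM of adh1, where those had 1527 and 1268 CPM and the other S_0h libraries 290.4 and 612 CPM. For pdc3, A_0h replicate 3 had 1078 CPM, its nearest libraries A_12h replicates 1 and 2 had 1124 and 1138 CPM, and the other A_0h libraries had 619 and 604 CPM. Measured by the log2 distance to the mean of either pair, all 6 were closer to their nearest libraries than to the rest of their group for pdc3, and 5 of 6 were for adh1. The exception was WT_12h replicate 3, at 292 CPM of adh1, between S_0h replicates 1 and 2 at 290.4 and 612 CPM and below WT_12h replicates 1 and 2 at 326 and 372 CPM. For pdc3 the distance to the nearest libraries was at most 0.10 on the log2 scale, and that to the own group ran from 0.10 to 0.82. The nearest libraries were found from all tested genes, adh1 and pdc3 among them. The 6 libraries were picked for their likeness to other groups over these genes, so closeness in a single gene partly follows from that choice. The share of all genes with such closeness was not counted, and these counts show nothing particular to adh1 and pdc3.

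**Figure D3:**
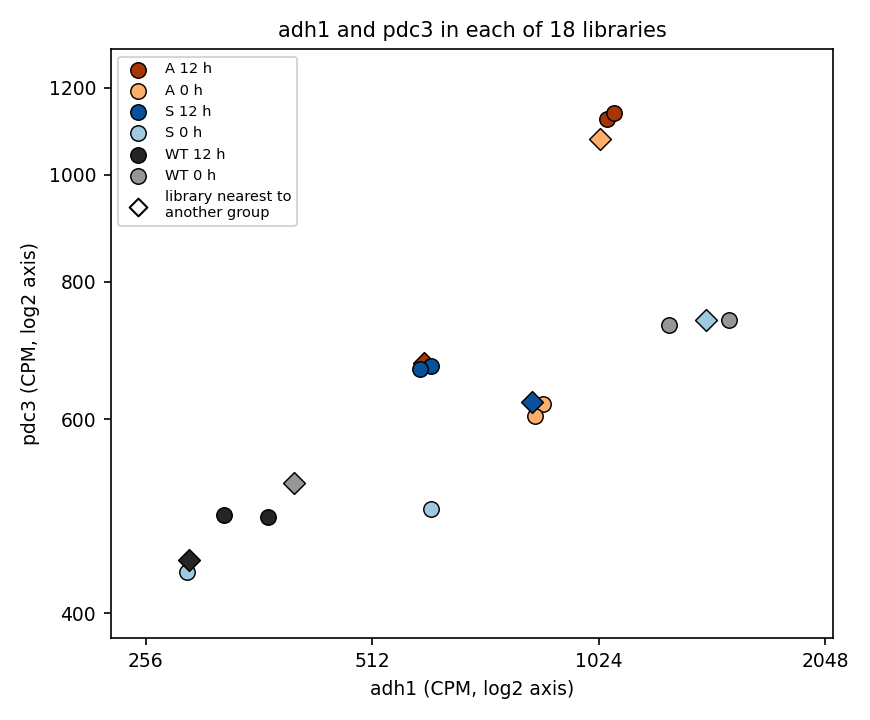
adh1 (x axis) against pdc3 (y axis) in CPM, both on log2 axes, with 1 point per library, coloured by group. Diamonds, the 6 libraries with neither nearest library in their own group, lie beside points of another colour. A_12h replicates 1 and 2 and A_0h replicate 3 share the highest pdc3 levels (1078 to 1138 CPM), while WT_0h replicates 1 and 3 and S_0h replicate 3 share the highest adh1 levels (1268 to 1527 CPM).

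The 2 genes did not keep a fixed proportion. The counts of adh1 per count of pdc3 in the same library do not depend on library scaling, but they depend on transcript length, so only their differences between libraries can be read. This ratio was 0.933, 0.942 and 0.889 in A_12h replicates 1, 2 and 3, against 1.40, 1.39 and 0.953 in A_0h replicates 1, 2 and 3. It was 0.914, 0.888 and 1.34 in S_12h replicates 1, 2 and 3, against 0.665, 1.23 and 1.93 in S_0h replicates 1, 2 and 3. It was 0.663, 0.761 and 0.654 in WT_12h replicates 1, 2 and 3, against 2.07, 0.766 and 1.74 in WT_0h replicates 1, 2 and 3. The libraries labelled hypoxic thus held less adh1 per pdc3 than those labelled normoxic in line A and in WT, without overlap, and the groups of line S overlapped. In WT this separation was within counting error, since the ratios of WT_12h replicate 2 (0.761, counting error 0.842%) and WT_0h replicate 2 (0.766, counting error 0.775%) could not be told apart. In line A the gap was narrow too, between A_12h replicate 2 (0.942, counting error 0.461%) and A_0h replicate 3 (0.953, counting error 0.521%). The ratio was examined after the values had been seen and was not tested. The share of other gene pairs without overlap was not counted, so the separations show nothing particular to these 2 genes.

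The first comparison is that of hypoxia with normoxia inside each line. With all libraries, 0 of the 2 genes passed an adjusted p of 0.05 in any line by edgeR's quasi-likelihood test with Benjamini-Hochberg adjustment over 20945 genes. pdc3 had a log2 fold change (12 h over 0 h) of 0.35 in line A (SE 0.25, adjusted p = 0.365 by edgeR), of 0.23 in line S (SE 0.25, adjusted p = 0.567) and of -0.48 in WT (SE 0.25, adjusted p = 1.0). adh1 had a log2 fold change of -0.0060 in line A (SE 0.49, adjusted p = 0.994 by edgeR), of -0.19 in line S (SE 0.49, adjusted p = 0.823) and of -1.69 in WT (SE 0.50, adjusted p = 1.0). The WT value of adh1 is a 3.23-fold lower level at 12 h, and 2.72% of all genes tested had a larger change in either direction. Its p before adjustment was 0.00426 by edgeR, and that of pdc3 in WT was 0.0739.

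Over all genes, edgeR called 0% in line A, 8.7% in line S and 0% in WT. In line A 4021 genes and in WT 379 genes had an unadjusted p under 0.05 by edgeR, while DESeq2 called 176 and 9 genes there and limma-voom 0 in both. The ranges of the groups did not overlap in WT for 2 of 2 genes, where 8.68% of all genes tested had no overlap, and overlapped in lines A and S for both. An exact two-sided permutation of the labels in 1 line, where no p under 0.1 can be reached, gave p = 1.0, 0.9 and 0.1 for adh1 and p = 0.2, 0.4 and 0.1 for pdc3 in lines A, S and WT. Single libraries set the direction of adh1 in the transgenic lines. Its log2 fold change in line A was 0.082 without A_0h replicate 3 and 0.22 without A_12h replicate 3, and in line S it was 0.59 without S_0h replicate 3. In line S the mean of log2 CPM also went the other way, 0.087 higher in S_12h than in S_0h.

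Averaged over the 3 lines, libraries labelled 12 h differed from those labelled 0 h by a log2 fold change of -0.63 for adh1 (SE 0.28, adjusted p = 0.182 by edgeR) and of 0.033 for pdc3 (SE 0.14, adjusted p = 0.917), where edgeR called 0.00477% of genes, 1 in all. The exact two-sided permutation test within lines, over 8000 arrangements, gave p = 0.187 for adh1 and p = 0.768 for pdc3. Neither gene was therefore shown to be higher under the hypoxic label across the 18 libraries. The sign for pdc3 turned without WT_0h replicate 2, S_0h replicate 1, A_0h replicate 1, A_0h replicate 2, A_12h replicate 1 or A_12h replicate 2, with values down to -0.019.

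Without the 6 libraries, 2 remained in each group and the differences between oxygen labels were larger in size in each line for both genes, with a change of sign for adh1 in lines A and S. This choice by its construction narrows the spread within groups and, where a library left out resembled the group it is compared with, as WT_0h replicate 2 did WT_12h, widens the difference between them, so the p-values of these fits are too small and the fold changes no separate support, and edgeR called 59.5% of 21030 genes in line A, 54.9% in line S and 29.2% in WT. pdc3 was higher at 12 h in line A, at 1131 ± 9.69 CPM in A_12h and 612 ± 10.9 CPM in A_0h (SD, n = 2 each), a log2 fold change of 0.89 (SE 0.044, adjusted p = 1.43e-12 by edgeR). It was higher in line S as well, at 668 ± 2.87 CPM in S_12h and 467 ± 43.4 CPM in S_0h (log2 fold change 0.52, SE 0.044, adjusted p = 5.44e-09 by edgeR). In WT it was lower at 12 h, at 490.1 ± 1.74 CPM in WT_12h and 734 ± 5.48 CPM in WT_0h (log2 fold change -0.58, SE 0.044, adjusted p = 4.47e-09 by edgeR).

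adh1 passed the threshold in 1 line of that fit. In WT it was lower at 12 h, at 349 ± 32.8 CPM in WT_12h and 1398 ± 183 CPM in WT_0h (SD, n = 2 each), a log2 fold change of -2.00 (SE 0.33, adjusted p = 0.00470 by edgeR). In line A it was at 1061 ± 16.0 CPM in A_12h and 853 ± 16.2 CPM in A_0h (log2 fold change 0.31, SE 0.32, adjusted p = 0.434 by edgeR). In line S it was at 602 ± 15.0 CPM in S_12h and 451 ± 228 CPM in S_0h (log2 fold change 0.42, SE 0.32, adjusted p = 0.317 by edgeR). Averaged over the lines, the log2 fold change was -0.42 for adh1 (SE 0.18, adjusted p = 0.0925 by edgeR) and 0.27 for pdc3 (SE 0.026, adjusted p = 1.61e-08), where 58.2% of genes were called.

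The second comparison sets the lines against each other under hypoxia. With all libraries, pdc3 was higher in A_12h than in WT_12h, with a log2 fold change of 1.04 (SE 0.25, adjusted p = 0.0283 by edgeR), a 2.06-fold higher level, and 3 of 3 A_12h libraries lay above all WT_12h libraries. This was the only difference of either gene that passed the threshold with all 18 libraries, in a comparison where edgeR called 6.47% of genes. The call was lost without WT_12h replicate 1 (adjusted p = 0.110 by edgeR), 2 (0.120) or 3 (0.0548) and without A_12h replicate 1 (0.0851) or 2 (0.0881), and was kept without A_12h replicate 3 (0.0182). adh1 was also above WT in every A_12h library, with a log2 fold change of 1.46 (SE 0.50, adjusted p = 0.0872 by edgeR), and passed by DESeq2 (adjusted p = 0.0177) and with only the groups compared in the edgeR fit (adjusted p = 0.03115). Of all genes, 36.7% had no overlap between A_12h and WT_12h.

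By group means, line S lay between line A and WT at 12 h. The log2 fold change of S_12h over WT_12h was 1.04 for adh1 (SE 0.49, adjusted p = 0.172 by edgeR) and 0.46 for pdc3 (SE 0.25, adjusted p = 0.235), with 11.3% of genes called. All S_12h libraries lay above all WT_12h libraries for 2 of 2 genes, where 26.9% of all genes had no overlap. Between A_12h and S_12h the log2 fold change was 0.42 for adh1 (SE 0.49, adjusted p = 0.835 by edgeR) and 0.58 for pdc3 (SE 0.25, adjusted p = 0.646), and 0% of genes were called by edgeR, with 1581 genes at an unadjusted p under 0.05, 93 called by DESeq2 and 0 by limma-voom. The pdc3 ranges did not overlap there (675 CPM in the lowest A_12h library and 670.4 CPM in the highest S_12h library), as in 9.97% of all genes, and those of adh1 did. Both transgenic lines, the one with more and the one with less ZmPgb1.1, thus lay above WT for both genes at 12 h, and both comparisons share the WT_12h libraries.

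Under normoxia neither gene passed with all libraries. The log2 fold change of A_0h over WT_0h was -0.23 for adh1 (SE 0.49, adjusted p = 0.827 by edgeR) and 0.21 for pdc3 (SE 0.25, adjusted p = 0.674), where 3.32% of genes were called. That of S_0h over WT_0h was -0.46 for adh1 (SE 0.49, adjusted p = 1.0 by edgeR) and -0.25 for pdc3 (SE 0.25, adjusted p = 1.0), where edgeR and limma-voom called 0%, DESeq2 called 15 genes and 355 genes had an unadjusted p under 0.05. That of A_0h over S_0h was 0.23 for adh1 (SE 0.49, adjusted p = 0.836 by edgeR) and 0.46 for pdc3 (SE 0.25, adjusted p = 0.304), where 1.82% were called. The ranges of the groups overlapped for both genes in each of these comparisons, while 25.8% of all genes had no overlap between A_0h and WT_0h, 9.33% between S_0h and WT_0h and 25.8% between A_0h and S_0h. The spread of adh1 within S_0h and WT_0h, 75.3% and 55.2% of the mean, was the widest of the 6 groups, and 1 library set the sign in several cases. adh1 in A_0h over WT_0h was 0.12 without WT_0h replicate 1, adh1 in A_0h over S_0h was -0.16 without S_0h replicate 1, and pdc3 in A_0h over WT_0h was -0.12 without A_0h replicate 3.

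Without the 6 libraries, both genes were lower in S_0h than in WT_0h, by a log2 fold change of -1.63 for adh1 (SE 0.32, adjusted p = 0.0157 by edgeR) and -0.65 for pdc3 (SE 0.044, adjusted p = 1.89e-09), with 20.1% of genes called. For A_0h over WT_0h, with 49.2% of genes called, pdc3 was lower (log2 fold change -0.26, SE 0.044, adjusted p = 5.63e-05 by edgeR) and adh1 was at -0.71 (SE 0.32, adjusted p = 0.113). Both genes were higher in A_0h than in S_0h, by 0.92 for adh1 (SE 0.32, adjusted p = 0.0496 by edgeR) and 0.39 for pdc3 (SE 0.044, adjusted p = 3.48e-07), with 54.3% called. At 12 h both genes were higher in line A than in WT, by 1.61 for adh1 (SE 0.32, adjusted p = 0.00692 by edgeR) and 1.21 for pdc3 (SE 0.045, adjusted p = 2.80e-14), with 47% called. pdc3 was higher in S_12h than in WT_12h by 0.45 (SE 0.044, adjusted p = 3.33e-08 by edgeR), with adh1 at 0.79 (SE 0.32, adjusted p = 0.0758) and 58.5% called. It was higher in A_12h than in S_12h by 0.76 (SE 0.044, adjusted p = 4.09e-11 by edgeR), with adh1 at 0.82 (SE 0.32, adjusted p = 0.0800) and 47.6% called. In these 12 libraries WT thus held the most adh1 of the 3 lines at 0 h and the least at 12 h, although not every step passed the threshold. The limit given above holds here too: the p-values of this fit are too small, and passing the threshold is no separate support.

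The third comparison sets the hypoxia responses of the lines against each other. With all libraries, the response of line A minus that of WT was 1.69 for adh1 (log2, SE 0.69, adjusted p = 0.689 by edgeR) and 0.83 for pdc3 (SE 0.35, adjusted p = 0.689). edgeR and limma-voom called 0% of genes there and DESeq2 called 16 genes, while the unadjusted p was under 0.05 in 1089 genes by edgeR. The response of line S minus that of WT was 1.502 for adh1 (SE 0.69, adjusted p = 0.338 by edgeR) and 0.71 for pdc3 (SE 0.35, adjusted p = 0.374), with 0.105% of genes called. The response of line A minus that of line S was 0.18 for adh1 (SE 0.69, adjusted p = 0.917 by edgeR) and 0.12 for pdc3 (SE 0.35, adjusted p = 0.884), with 1.23% called. The sign of this last difference turned without S_0h replicate 3 for both genes (-0.60 for adh1 and -0.13 for pdc3) and, for pdc3, without A_0h replicate 1, A_0h replicate 2 or A_12h replicate 2. A difference between lines in the response of either gene was therefore not shown with the libraries as labelled.

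Without the 6 libraries, both transgenic lines differed from WT in their response for 2 of 2 genes. Line A minus WT was 2.32 for adh1 (log2, SE 0.45, adjusted p = 0.00596 by edgeR) and 1.47 for pdc3 (SE 0.063, adjusted p = 2.83e-13), with 47.8% of genes called. Line S minus WT was 2.42 for adh1 (SE 0.45, adjusted p = 0.00537 by edgeR) and 1.104 for pdc3 (SE 0.063, adjusted p = 3.25e-11), with 43.7% called. Line A minus line S was -0.10 for adh1 (SE 0.45, adjusted p = 0.885 by edgeR) and 0.37 for pdc3 (SE 0.063, adjusted p = 5.99e-05), with 50% called. These comparisons share the WT, line S and line A libraries between them, and the limit on the p-values given above holds for them.

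**Figure D4:**
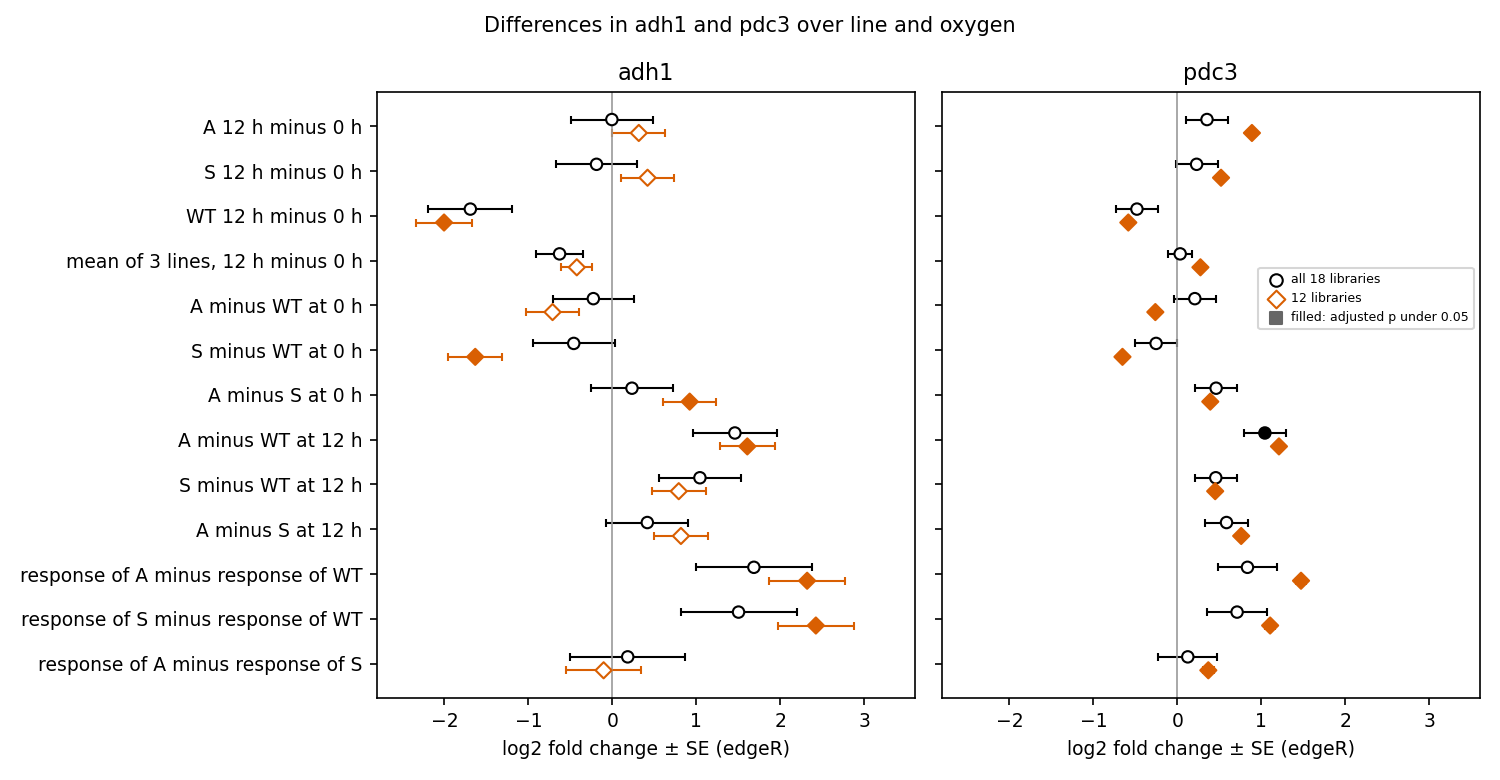
log2 fold changes of adh1 (left panel) and pdc3 (right panel) with their SE in the 13 comparisons, by edgeR. Circles are with all 18 libraries and diamonds without the 6 libraries that had neither nearest library in their own group. Filled symbols passed an adjusted p of 0.05. With all libraries only pdc3 in line A over WT at 12 h is filled, at 1.04, and in WT both genes lie below 0 in either fit.

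Across the 18 libraries, the SD of log2 CPM was 0.78 for adh1 and 0.43 for pdc3, against a median of 0.20 over the 12145 genes with a mean of at least 10 CPM. A larger SD was found in 4.36% of these genes for adh1 and in 13.1% for pdc3. The genes whose pattern was most like adh1, by the SD over 18 libraries of the log2 difference to it, were Zm00001d013053.RefGen_V4 (SD 0.21) and Zm00001d032386.RefGen_V4 (SD 0.28). Zm00001d013053.RefGen_V4 ran from 3.32 CPM in WT_12h replicate 3 to 21.4 CPM in S_0h replicate 3, and these libraries were also at 292 and 1422 CPM of adh1. The genes most like pdc3 were Zm00001d002358.RefGen_V4 and Zm00001d028071.RefGen_V4, both with an SD of 0.14. Zm00001d002358.RefGen_V4 was at 162, 170.4 and 93.8 CPM in A_12h replicates 1, 2 and 3, against 97.3, 95.4 and 172 CPM in A_0h replicates 1, 2 and 3, with the same replicates high and low as for pdc3. Among the 12144 candidates, pdc3 ranked 29 in likeness to adh1 (SD 0.53). In the other direction, at the same SD of 0.53, adh1 ranked 8467 of 12144 in likeness to pdc3. This measure depends on how much each gene varied. A gene at the same level in all libraries would be at pdc3's own SD of 0.43 from it, closer than adh1. Neither rank therefore shows whether the 2 genes shared a pattern, and a correlation between them was not computed.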

How the data were processed

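Per the labels, total RNA of quiescent centres was sequenced. The authors deposited whole-number read counts per gene, not normalised. The submitters' processing notes name HISAT2, featureCounts and the build B73 RefGen_v4. The sources used here give no versions, strand setting or treatment of reads with several matches, so reads shared with the paralogs of adh1 and pdc3 are uncertain. Groups and replicates were taken from the titles, which match the 18 columns.

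Counts were analysed with edgeR 4.0.16 (limma 3.58.1, R 4.3.3): filterByExpr kept 20945 of 28724 genes, libraries were scaled by TMM (factors 0.975 to 1.023), and a quasi-likelihood model with robust dispersion and 1 mean per group was fitted to all genes and 18 libraries (12 residual degrees of freedom). The 13 contrasts were adjusted by Benjamini-Hochberg over all genes tested. Standard errors were derived from the F statistic. log2 CPM used a prior count of 2. The fit was tested on simulated counts. Genes like a member had a mean of at least 10 CPM. Alternatives were DESeq2 1.42.0, limma-voom, other scaling and filters, a replicate block, only the groups compared, and each library left out. The members, lists and tests were chosen with earlier results of these data known.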

Additional observations from a re-analysis of the deposited data

How the results depend on the processing

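Values are log2 fold changes unless stated. RLE scaling, no low-count filter and the stricter filter changed no direction and no call of the 26 model results. Where adh1 in line A (12 h over 0 h) was near 0, its sign turned with library totals unscaled (0.0096) and with the replicate block (0.046). limma-voom turned adh1 in line S (0.088) and in the response of line A minus line S (-0.14). For adh1 in A_12h over WT_12h, DESeq2 (1.45), which called 3147 genes there, and only the groups compared (1.46) passed the threshold. With the replicate block, pdc3 in that comparison was 1.05 (adjusted p = 0.0521 by edgeR) and lost its call. Deviations of same-numbered libraries correlated from -0.77 to 0.54 over 45 pairs, 4 of them over 0.1, and 4 of 18 libraries correlated best with their own number, so the numbers do not pair the libraries.

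The next fit is that of the 12 libraries left without those that had neither nearest library in their own group. In it the sign turned for adh1 in line A (0.31), line S (0.42) and the response of line A minus line S (-0.10). It also turned for pdc3 in A_0h over WT_0h (-0.26), which passed the threshold there as well. Other results that passed there and not with all libraries were the 12 h over 0 h difference of pdc3 in line A (0.89), line S (0.52), WT (-0.58) and their mean (0.27) and of adh1 in WT (-2.00). At 0 h they were S over WT for adh1 (-1.63) and pdc3 (-0.65) and A over S for adh1 (0.92) and pdc3 (0.39). At 12 h they were A over WT for adh1 (1.61), S over WT for pdc3 (0.45) and A over S for pdc3 (0.76). Among responses they were A minus WT for adh1 (2.32) and pdc3 (1.47), S minus WT for adh1 (2.42) and pdc3 (1.104), and A minus S for pdc3 (0.37). The spread in that fit is lower by construction.

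With 1 library left out at a time, pdc3 in A_12h over WT_12h ran from 0.91 to 1.25 and lost its call in 5 of 6 settings. The sign turned within the range for adh1 in line A (-0.15 to 0.22) and line S (-0.58 to 0.59), for the mean response of pdc3 (-0.019 to 0.14), for adh1 (-0.62 to 0.12) and pdc3 (-0.12 to 0.35) in A_0h over WT_0h, for adh1 in A_0h over S_0h (-0.16 to 1.01), and for adh1 (-0.60 to 0.57) and pdc3 (-0.13 to 0.44) in the response of line A minus line S. No other result changed its direction or its side of the threshold when a library was left out. Depth was no limit for these genes, whose counting error was at most 0.699%.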

Other observations

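S_0h replicate 2 differed from the libraries it most resembled in adh1 and less so in pdc3. Its nearest libraries were WT_12h replicate 3 and S_0h replicate 1. It held 612 CPM of adh1, where they held 292 and 290.4 CPM, and 498 CPM of pdc3, where they held 447 and 436 CPM. Its ratio of adh1 to pdc3 counts was 1.23, against 0.654 and 0.665 in them. In the fit without the 6 libraries this library and S_0h replicate 1 make up S_0h, where the SD of adh1 was 50.4% of the mean, the widest of the 6 groups of 2 libraries.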
